A study of Mus musculus with 6 samples.

Results

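The 10 genes described here encode the calcium cycling machinery of the cardiac sarcoplasmic reticulum, and they were taken by name from the 54532 genes of the deposited expression table: Ryr2, Fkbp1b, Casq2, Trdn, Hrc, Jph2, Atp2a2, Pln, Slc8a1 and Camk2d. All 10 were in the table and all 10 passed the filter on low values, which kept 18035 genes with a mean of at least 0.1 FPKM, a read count scaled by gene length and library depth. The tissue was heart from male mice aged 12 weeks on a C57B/6/N background, and the study compared homozygous Mc4r knockout (Mc4r KO) mice with wild-type (WT) littermates from matings of heterozygotes, with 3 libraries in each group. Mc4r encodes the melanocortin-4 receptor, which acts in the brain to limit food intake, and the knockout was of the germ line, passed on by heterozygous parents, and not limited to heart muscle cells. The sample titles say muscle, the tissue label says heart, and the text of the study speaks of left ventricle. Polyadenylated RNA was sequenced, and the question for these genes was whether their RNA differed between the genotypes at an age when the study set out to look for molecular change ahead of impaired function.

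In each heartbeat, calcium entering through the surface membrane opens the ryanodine receptor, the release channel of the sarcoplasmic reticulum, and the released calcium activates the myofilaments. Relaxation follows when the SERCA pump returns calcium to the store and the sodium-calcium exchanger removes the remainder from the cell. Phospholamban restrains the pump until it is phosphorylated, calsequestrin buffers calcium inside the store, triadin and junctophilin hold the release site together, and the calmodulin-dependent kinase phosphorylates several of these proteins.

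The libraries held 14691076 to 16047003 reads on genes. Mitochondrially encoded genes made up 47.1% to 59.3% of all FPKM of a library in WT and 43.0% to 46.6% in Mc4r KO. The library GC content used here is the GC of each nuclear gene's longest annotated transcript, averaged with the gene's reads as weights. It was 49.6% to 50.3% in WT and 50.5% in each Mc4r KO library. It was computed from reads per gene, not from the bases of the reads. Mc4r itself had 2 reads in WT replicate 3 and none in the other 5 libraries, under the floor of 3 reads, so its level could not check the genotype labels. Heart muscle was well represented: the 7 cardiomyocyte markers summed to 17300 to 18498 FPKM in WT and 21247 to 22986 FPKM in Mc4r KO, without overlap, although Actc1, Myl2 and Mb were the only 3 of the 7 whose groups did not overlap singly, and the skeletal myosin gene Myh4 was listed at 0 in all libraries. WT replicate 3 stood apart, because its 5 atrial markers (Myl7, Myl4, Sln, Bmp10 and Dkk3) summed to 511 FPKM against 0.978 to 59.3 FPKM in the other 5 libraries. The 4 haemoglobin genes summed to 6301, 4460 and 850 FPKM in WT replicates 3, 1 and 2 and to 617 to 1641 FPKM in Mc4r KO. The 5 fibroblast markers summed to 169 to 184 FPKM in WT and 131 to 147 FPKM in Mc4r KO, and the 5 leukocyte markers to 17.9 to 24.8 and 14.5 to 16.7 FPKM, both without overlap. Dcn alone gave 109 to 125 FPKM in WT and 77.1 to 87.0 FPKM in Mc4r KO, and Pdgfra was also lower without overlap. Col1a1, Col1a2 and Col3a1 overlapped, and the mean of Col1a1 was higher in Mc4r KO (20.2 against 15.4 FPKM). Of the leukocyte markers, Csf1r and Cd68 did not overlap singly, whereas Ptprc, Cd79a and Cd3e did. The part of these differences in the results below was not tested, and in bulk tissue fewer cells of a type and less RNA per cell cannot be told apart.

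By RNA level per length, the members spanned a wide range. Atp2a2 had a mean of 2150 FPKM over the 6 libraries and ranked 22 among all 54532 genes, taking 1.06% to 1.57% of the reads of a library. Pln followed at 518 FPKM, then Casq2 at 334, Hrc at 317, Jph2 at 141, Ryr2 at 56.4, Slc8a1 at 55.9, Trdn at 32.5, Camk2d at 6.83 and Fkbp1b at 0.360 FPKM. Casq2 and Hrc overlapped in their library values, as did Ryr2 and Slc8a1, so the order within either pair was not larger than the spread between libraries. The other neighbours in this order did not overlap across the 6 libraries.

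The promoters of 3 genes are shown because their genes mark the range of the group: Ryr2 and Jph2 had the smallest adjusted p among the members higher in Mc4r KO, and Pln was the most abundant member lower in Mc4r KO. RefSeq gave a start site for 8 of the 10 members on GRCm38.p6; Trdn and Atp2a2 were not matched. The 250 bases before the start site are printed 5′ to 3′ on the strand of the gene, with capitals marking matches, on either strand, to any of 6 motifs. Those searched were the core promoter element TATAAA, the Sp1 motif GGGCGG and the nuclear receptor motif AGGTCA. The hypoxia-response core ACGTG, the motif AGATAA bound by factors of the Gata family and the motif CATTCC bound by those of the Tead family completed the set.
Ryr2, chr13:12106946-12107195, minus strand: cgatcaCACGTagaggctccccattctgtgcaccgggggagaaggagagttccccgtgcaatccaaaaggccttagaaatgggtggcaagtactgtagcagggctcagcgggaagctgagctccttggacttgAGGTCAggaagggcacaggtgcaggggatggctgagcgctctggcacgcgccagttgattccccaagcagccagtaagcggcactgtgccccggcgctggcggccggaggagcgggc
Jph2, chr2:163397994-163398243, minus strand: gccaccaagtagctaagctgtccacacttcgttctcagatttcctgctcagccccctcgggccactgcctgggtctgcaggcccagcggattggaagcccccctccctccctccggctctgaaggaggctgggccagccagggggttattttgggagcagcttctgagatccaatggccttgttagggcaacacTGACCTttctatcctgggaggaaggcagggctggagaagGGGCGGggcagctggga
Pln, chr10:53337436-53337685, plus strand: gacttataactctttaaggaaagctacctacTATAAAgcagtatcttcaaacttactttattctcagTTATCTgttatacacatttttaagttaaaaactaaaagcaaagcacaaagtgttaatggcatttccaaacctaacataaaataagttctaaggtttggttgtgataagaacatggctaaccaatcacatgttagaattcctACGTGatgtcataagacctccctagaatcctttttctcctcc
The Ryr2 and Jph2 promoters had a GC content of 63.2% and 62.0%, and that of Pln 32.8%, against a median of 52.4% over 32851 promoters. The Ryr2 window held AGGTCA 117 bases before the start and ACGTG on the opposite strand at 244 bases. In Jph2, GGGCGG lay 17 bases before the start and AGGTCA on the opposite strand at 56 bases. The Pln window held TATAAA at 219 bases, ACGTG at 42 bases and AGATAA on the opposite strand at 183 bases. Of all promoters of this length, 12.4% held TATAAA, 32.7% held GGGCGG and 14.0% held AGGTCA. The shares were 16.6% for ACGTG, 9.99% for AGATAA and 12.6% for CATTCC, and a match is given here as a description only.

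In limma on log2 FPKM, no member passed the study's criterion of an adjusted p under 0.05 with an absolute log2 fold change above 0.75. Adjustment was by Benjamini-Hochberg over all 18035 genes. The study applied these thresholds with DESeq2, which was not run here. Of all genes tested, 83 (0.46%) met that criterion and 105 (0.582%) had an adjusted p under 0.05. At an unadjusted p under 0.05 there were 6 members, Ryr2, Casq2, Hrc, Jph2 and Slc8a1 being higher and Trdn lower in Mc4r KO, against 20.9% of all genes. The groups did not overlap for 7 members, 6 of them higher in Mc4r KO (14.1% of all genes were so) and 1 lower (12.4% of all genes). The median log2 fold change of the 10 members was 0.31, and that of all genes was -0.01. Scaled to the FPKM outside the mitochondrial chromosome, these medians were 0.11 and -0.19, and the members stayed at 6 higher and 4 lower. With the mitochondrial share of each library as a covariate, 8 members were higher and 2 lower, because Pln and Camk2d turned. With limma voom on the reads recovered from the FPKM, Jph2 met the criterion and Ryr2 also had an adjusted p under 0.05. Of all genes, 314 met the criterion there and 816 had an adjusted p under 0.05. Leaving out WT replicate 3 gave adjusted p-values in limma of 0.0291 for Jph2, 0.0284 for Ryr2 and 0.0427 for Hrc. They were 0.0370 for Trdn and 0.0286 for Pln, and Jph2 alone of these also passed the fold limit. In that fit 1848 of 17966 genes had an adjusted p under 0.05. Leaving out any other single library left no member under 0.05.

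**Figure D1:**
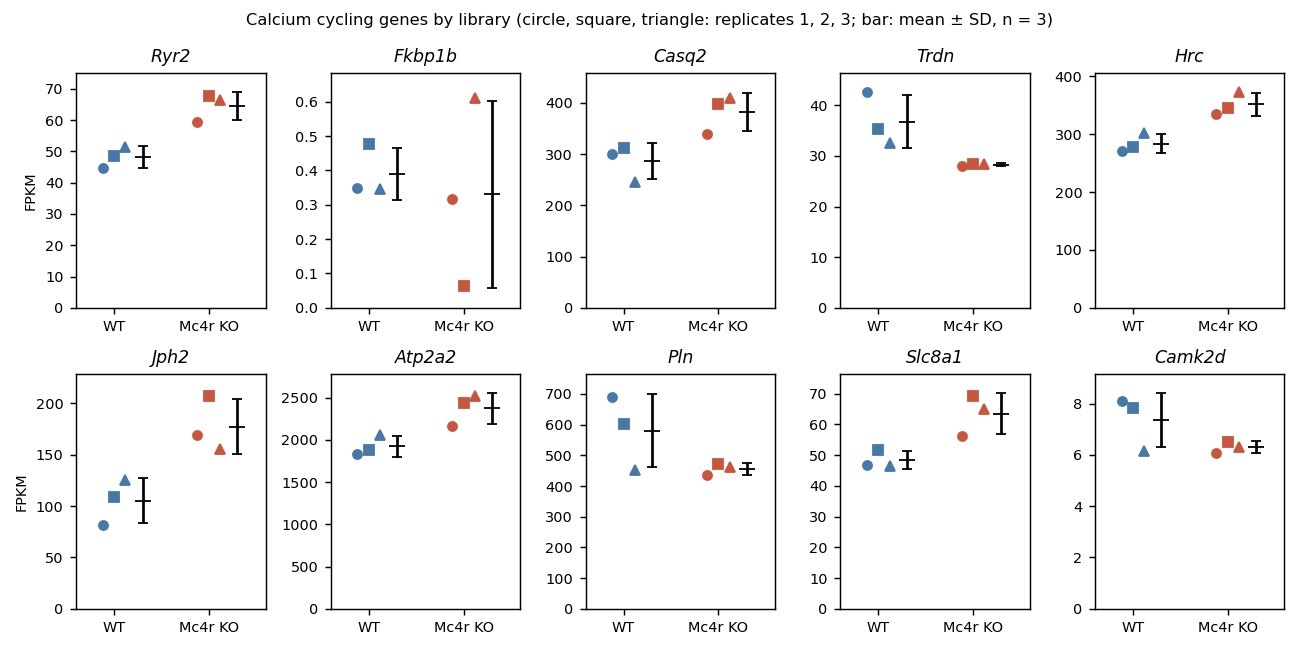
Points give the FPKM (linear axis from 0) of each calcium cycling gene in the 3 WT and 3 Mc4r KO libraries, with marker shape for the replicate number and a bar for mean ± SD. The 3 Mc4r KO libraries lie above all WT libraries for Ryr2, Casq2, Hrc, Jph2, Atp2a2 and Slc8a1 and below them for Trdn, while the ranges of the groups overlap for Fkbp1b, Pln and Camk2d.

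Ryr2 encodes the cardiac ryanodine receptor, the channel through which the store releases calcium, and lies on chromosome 13 at 11553102 to 12106945 of mm10 on the minus strand. It measured 44.5, 48.6 and 51.6 FPKM in WT replicates 1 to 3 and 59.5, 67.6 and 66.4 FPKM in Mc4r KO replicates 1 to 3. All Mc4r KO libraries lay above all WT libraries. The gap between the nearest libraries of the groups was larger than the range within WT but slightly smaller than that within Mc4r KO. The means were 48.2 ± 3.53 and 64.5 ± 4.38 FPKM (SD, n = 3), a difference of 33.7%, and the log2 fold change was 0.42 with a standard error (SE) of 0.093 and an adjusted p of 0.0871 in limma. With 18080 to 30671 reads in a library, counting error was small for this gene.

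Fkbp1b encodes calstabin 2 (FKBP12.6), a small binding partner that stabilises the closed state of the release channel. It rested on 5, 7 and 6 reads in WT and 5, 1 and 10 reads in Mc4r KO. This gave 0.347, 0.477 and 0.345 FPKM in WT and 0.316, 0.0645 and 0.610 FPKM in Mc4r KO. The Mc4r KO libraries spanned the WT values on both sides, and a difference was not detectable at this depth (log2 fold change -0.41, 95% interval -1.66 to 0.83). Its paralog Fkbp1a, which encodes FKBP12, was far more abundant, at 31.6 to 36.6 FPKM in WT and 32.9 to 36.5 FPKM in Mc4r KO, and its groups overlapped.

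Next come the genes whose products lie in the lumen of the store and at the junction. Casq2 encodes cardiac calsequestrin, the main calcium buffer of the store, and lies on chromosome 3 at 102086415 to 102146514. It measured 300.4, 312 and 246 FPKM in WT and 340, 398 and 409 FPKM in Mc4r KO, so that the groups did not overlap and WT replicate 3 was the lowest library. The log2 fold change was 0.42 (SE 0.13, adjusted p = 0.141 in limma). Hrc, the histidine-rich calcium-binding protein of the lumen, lies on chromosome 7 at 45335290 to 45338974. It measured 270.5, 278 and 302 FPKM in WT and 335, 346 and 373 FPKM in Mc4r KO. Its libraries were tightly grouped and did not overlap, and the log2 fold change was 0.31 (SE 0.095, adjusted p = 0.140 in limma).

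Trdn encodes triadin, which anchors calsequestrin to the release channel, and lies on chromosome 10 at 33080554 to 33476709. It was the one member of the junction that was lower in Mc4r KO, with 42.6, 35.3 and 32.5 FPKM in WT against 27.9, 28.4 and 28.4 FPKM. The 3 Mc4r KO values were nearly equal and lay below every WT value, while the WT values were widely spread. The means were 36.8 ± 5.20 and 28.3 ± 0.271 FPKM (SD, n = 3), and the log2 fold change was -0.37 (SE 0.11, adjusted p = 0.132 in limma).

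Jph2, which encodes junctophilin 2, the tether between the T-tubule membrane and the store, lies on chromosome 2 at 163336242 to 163397993 and had the largest difference among the members. It measured 81.7, 109 and 125 FPKM in WT and 169, 207 and 155 FPKM in Mc4r KO. The groups did not overlap, although both were widely spread. The means were 105 ± 21.9 and 177 ± 26.9 FPKM (SD, n = 3), a difference of 68.5%, with a log2 fold change of 0.76 (SE 0.18, 95% interval 0.34 to 1.18) and an adjusted p of 0.0956 in limma. Its transcript also had the highest GC content of the 10, at 61.8%.

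Atp2a2 encodes SERCA2, the pump that refills the store, and lies on chromosome 5 at 122453513 to 122502225. It measured 1832, 1879 and 2063 FPKM in WT and 2167, 2444 and 2516 FPKM in Mc4r KO. The groups did not overlap, with WT replicate 3 nearest to Mc4r KO. The log2 fold change was 0.30 (SE 0.14), its 95% interval of -0.03 to 0.63 included 0, and the adjusted p was 0.275 in limma.

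Pln encodes phospholamban, the inhibitor of that pump, and lies on chromosome 10 at 53337667 to 53345987 on the plus strand. It measured 690, 601 and 452 FPKM in WT and 434, 470 and 461 FPKM in Mc4r KO. WT replicate 3 fell inside the Mc4r KO range while the other WT libraries lay well above it, so the groups overlapped. The log2 fold change was -0.33 (SE 0.16, adjusted p = 0.303 in limma) with all libraries and -0.50 (SE 0.092, adjusted p = 0.0286) without WT replicate 3. The annotation places 64.7% of the exonic bases of Pln opposite exons of Cep85l and Gm47644 on the minus strand, and where counting does not use strand the reads of these genes cannot be told apart. Gm47644 measured 10.2, 9.36 and 6.98 FPKM in WT and 4.14, 4.16 and 4.81 FPKM in Mc4r KO, without overlap.

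Slc8a1 encodes the sodium-calcium exchanger of the surface membrane (NCX1), which carries calcium out of the cell, and lies on chromosome 17 at 81388691 to 81649607. It measured 46.9, 51.7 and 46.6 FPKM in WT and 56.3, 69.3 and 64.9 FPKM in Mc4r KO. All Mc4r KO libraries lay above all WT libraries, and the log2 fold change was 0.39 (SE 0.10, adjusted p = 0.108 in limma). The deposited gene length was 2934 bases against 18807 exonic bases in the GENCODE annotation used here, so its level relative to other genes is uncertain, whereas the comparison between libraries does not use the length.

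Camk2d encodes the main cardiac isoform of calcium/calmodulin-dependent kinase II, which phosphorylates the release channel and phospholamban, and lies on chromosome 3 at 126596302 to 126846326. It measured 8.12, 7.83 and 6.15 FPKM in WT and 6.07, 6.52 and 6.32 FPKM in Mc4r KO. As for Pln, WT replicate 3 lay within the Mc4r KO range and the other WT libraries lay above it. The log2 fold change was -0.21 (SE 0.12, adjusted p = 0.379 in limma).

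The size of these differences depended on how the libraries were scaled. Hrc had a log2 fold change of 0.07 under quantile normalization and 0.11 when libraries were scaled to the FPKM outside the mitochondrial chromosome, and Atp2a2 one of 0.26 and 0.11. Under the same 2 scalings Ryr2 was at 0.23 and 0.22, Casq2 at 0.23 and 0.22, Slc8a1 at 0.20 and 0.19, and Jph2 at 0.59 and 0.57. Pln, Trdn and Camk2d lay farther from 0 under both, with Pln at -0.52 and -0.53, Trdn at -0.52 and -0.57 and Camk2d at -0.26 and -0.41, while Fkbp1b was at -0.31 and -0.55. No member had an adjusted p under 0.05 in limma under either scaling, and 4 and 5 members had an unadjusted p under 0.05. The share of all genes at that threshold was not taken under these scalings, so nothing is read from the counts.

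The members were next set against each other within a library, because a ratio of 2 genes does not depend on how the library was scaled. There were 9 ratios with values above 0 in every library, each compared by a two-sided exact permutation test, for which 3 libraries against 3 cannot give a p below 0.1. The ratio of Pln to Atp2a2, the inhibitor to the pump, was 0.376, 0.320 and 0.219 in WT and 0.200, 0.193 and 0.183 in Mc4r KO. Every Mc4r KO library was below every WT library, the log2 difference was -0.63, and the exact permutation p was 0.1 (0.225 adjusted over the 9 ratios). WT replicate 3 was again nearest to Mc4r KO.

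Ratios to the release channel gave the same separation for triadin and the kinase. Trdn to Ryr2 was 0.956, 0.726 and 0.631 in WT and 0.470, 0.421 and 0.427 in Mc4r KO, a log2 difference of -0.79. Camk2d to Ryr2 was 0.182, 0.161 and 0.119 in WT and 0.102, 0.0964 and 0.0951 in Mc4r KO, a log2 difference of -0.64. Both had no overlap and an exact permutation p of 0.1 (0.225 adjusted). Ryr2 to Atp2a2 also did not overlap, at 0.0243, 0.0259 and 0.0250 in WT and 0.0274, 0.0277 and 0.0264 in Mc4r KO, but the log2 difference was only 0.12.

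Other pairs overlapped. Hrc to Atp2a2 lay between 0.146 and 0.148 in WT and between 0.141 and 0.155 in Mc4r KO (log2 difference 0.01, exact permutation p = 0.7). Casq2 to Ryr2 was 6.74, 6.42 and 4.78 in WT and 5.71, 5.89 and 6.16 in Mc4r KO (exact permutation p = 1). Slc8a1 to Atp2a2 and Jph2 to Ryr2 differed by 0.09 and 0.34 on the log2 scale, with exact permutation p-values of 0.4 and 0.2. Fkbp1b to Ryr2, which rests on 1 to 10 reads of Fkbp1b in a library, had the largest log2 difference at -1.15, with an SD of 1.70 on that scale in Mc4r KO and an exact permutation p of 0.3.

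**Figure D2:**
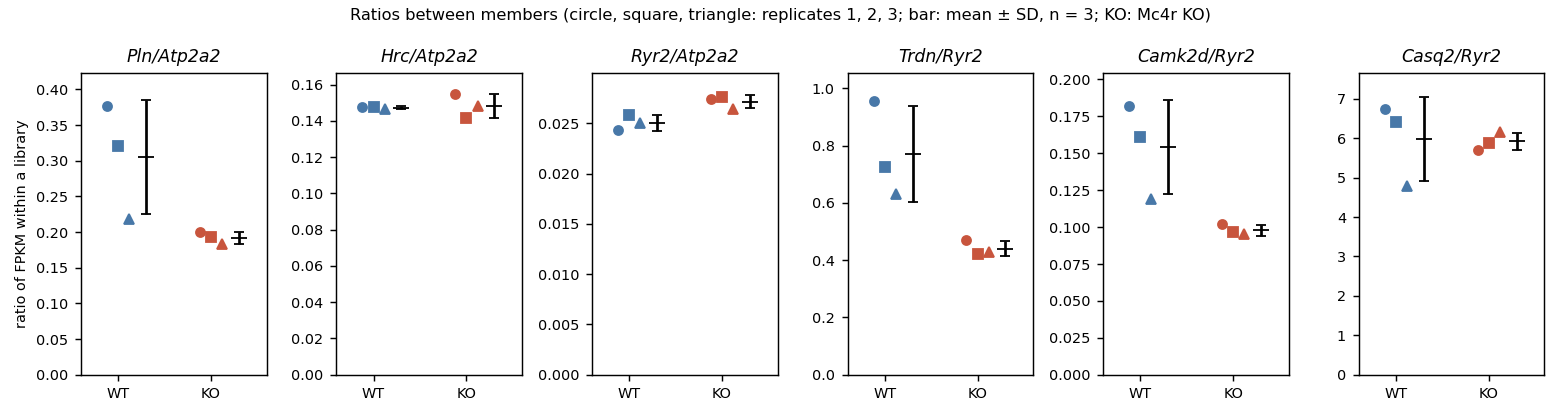
Each panel gives 1 ratio of FPKM within a library (linear axis from 0) for 3 WT and 3 Mc4r KO libraries, with marker shape for the replicate number and a bar for mean ± SD. Pln/Atp2a2, Trdn/Ryr2 and Camk2d/Ryr2 lie lower in every Mc4r KO library, with WT replicate 3 the nearest WT library in each, and Hrc/Atp2a2 and Casq2/Ryr2 overlap.

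The direction of the members ran with the GC content of their transcripts. Apart from Fkbp1b, the members lower in Mc4r KO were of low GC content, Trdn at 36.8%, Pln at 38.6% and Camk2d at 43.9% of the longest annotated transcript. The higher members had 40.2% (Slc8a1), 47.2% (Casq2), 48.2% (Atp2a2), 49.6% (Ryr2), 53.3% (Hrc) and 61.8% (Jph2). For Slc8a1 the deposited gene differs in length and position from the annotated one, so its GC content is uncertain. All genes showed a trend of the same kind. Their median log2 fold change was -0.23 for genes with under 40% GC, -0.16 from 40% to 45%, -0.06 from 45% to 50%, 0.06 from 50% to 55%, 0.16 from 55% to 60% and 0.27 above. Of genes under 40% GC, 23.3% were lower in every Mc4r KO library and 2.43% were higher in every one, while above 60% GC these shares were 2.41% and 24.1%.

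After the GC trend was removed from each library, the log2 fold changes were -0.12 for Pln, -0.14 for Trdn and -0.11 for Camk2d, nearer to 0 than before, and -0.55 for Fkbp1b, farther from it. Jph2 was at 0.45 and Hrc at 0.20. The values of Ryr2 (0.39), Casq2 (0.45) and Atp2a2 (0.31) moved little. Slc8a1, which was higher in Mc4r KO, was at 0.57. Its GC content is that of an annotated transcript that may not be the sequence counted, so its values after this removal are uncertain. No member then had an adjusted p under 0.05 in limma, the lowest being 0.0767 for Slc8a1, and 5 had an unadjusted p under 0.05. The log2 difference of the ratio of Pln to Atp2a2 became -0.43, that of Trdn to Ryr2 -0.53 and that of Camk2d to Ryr2 -0.50. For Jph2 to Ryr2 it became 0.06 and for Slc8a1 to Atp2a2 0.26. With the library GC content, as defined above, as a covariate instead, Pln was at 0.14 and Camk2d at 0.10. This covariate was computed from the same gene values as the fold changes, so its fit is not an independent check on them. In that fit Ryr2 was at 0.26, Jph2 at 0.33, Atp2a2 at 0.17, Hrc at 0.18 and Trdn at -0.09, all nearer to 0 than in the main fit. Casq2 at 0.66 and Slc8a1 at 0.42 were farther from it, and Fkbp1b was at -0.42. There, 0 of all genes met the criterion, and 2 members had an unadjusted p under 0.05. The share of all genes at an unadjusted p under 0.05 was not taken in either fit on GC content. Nothing is therefore read from the counts of 5 and 2 members. Library GC content and genotype overlapped so nearly that they cannot be told apart in this design.

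**Figure D3:**
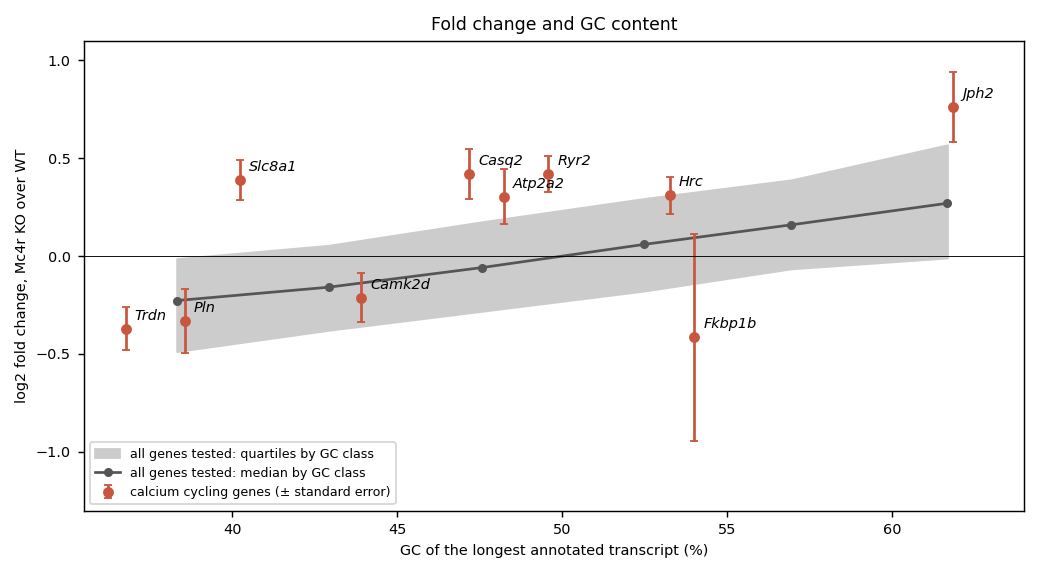
The log2 fold change of each member (point, ± SE) is plotted against the GC content (%) of its longest transcript, over the median (line) and quartiles (band) of all genes tested in 6 classes of GC content. The line climbs from -0.23 to 0.27. Trdn, Pln and Camk2d lie a little below the line, and Slc8a1, Casq2, Atp2a2, Ryr2 and Jph2 lie above the band. The GC content of Slc8a1 is uncertain, because its deposited gene differs from the annotated one.

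**Figure D4:**
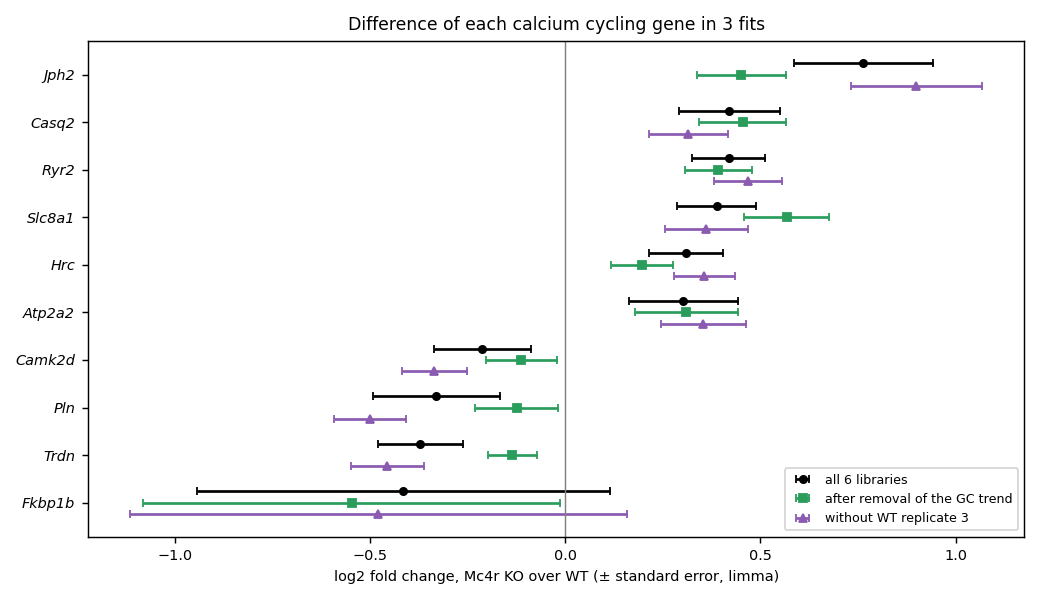
The log2 fold change (± SE) of each member is shown for all 6 libraries, after removal of the GC trend, and without WT replicate 3. Pln moves from -0.33 to -0.12 after removal of the trend and to -0.50 without WT replicate 3, while Ryr2 stays between 0.39 and 0.47.

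The closest relatives of the members were mostly scarce in these hearts. Of 17 listed paralogs and pump regulators, 16 were analysed here and 12 passed the filter on low values. No paralog met the criterion in limma, and 3 of the 12 had an unadjusted p under 0.05, all higher in Mc4r KO. Of all genes, 20.9% passed that threshold, and 14.1% were higher and 12.4% lower in every Mc4r KO library. Nothing particular to the paralogs is read from the count. Casq1, the skeletal calsequestrin, measured 3.02, 4.03 and 1.17 FPKM in WT and 8.88, 7.96 and 14.8 FPKM in Mc4r KO. Its groups did not overlap, the log2 fold change was 2.01 (SE 0.44, adjusted p = 0.0871 in limma), and with limma voom it met the criterion. Even at its highest it was far below the 246 to 409 FPKM of Casq2. Slc8a2 and Camk2b were likewise higher in every Mc4r KO library, at 0.146 to 0.234 against 0.355 to 0.450 FPKM and at 1.31 to 1.503 against 1.74 to 2.28 FPKM.

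The other paralogs showed no such separation, with 1 exception among those tested. Camk2g was lower in every Mc4r KO library, at 8.34 to 8.94 FPKM in WT and 7.92 to 8.19 FPKM in Mc4r KO (log2 fold change -0.12, adjusted p = 0.466 in limma). Camk2a lay at 6.995 to 7.42 and 6.29 to 8.56 FPKM, Jph1 at 5.11 to 6.02 and 4.36 to 5.92 FPKM, and the pump gene Atp2a3 at 4.57 to 5.28 and 3.52 to 4.89 FPKM. Ryr3, Atp2a1 and Mrln, the gene of myoregulin, stayed under 0.5 FPKM in every library. Ryr1, Jph3, Jph4 and Slc8a3 stayed under 0.1 FPKM and were not tested. Sln encodes sarcolipin, an inhibitor of the pump that is abundant in atria. It was listed at 0 in WT replicate 1 and Mc4r KO replicates 2 and 3, and measured 8.35 and 68.8 FPKM in WT replicates 2 and 3 and 8.99 FPKM in Mc4r KO replicate 1. These are the 3 libraries with the highest summed atrial markers, a list that Sln belongs to.

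A wider list of 60 genes of calcium handling was compared next, of which 59 passed the filter on low values. None met the criterion in limma, and 17 had an unadjusted p under 0.05, 11 higher and 6 lower in Mc4r KO, while 20.9% of all genes passed the same threshold. The median log2 fold change was 0.06, with 36 genes higher and 23 lower. When libraries were scaled to the FPKM outside the mitochondrial chromosome, which gave all genes a median of -0.19, the split was 18 higher and 41 lower. Srl, which encodes sarcalumenin, a calcium-binding glycoprotein of the store, measured 151, 154 and 166 FPKM in WT and 222, 256 and 240 FPKM in Mc4r KO. It was the one gene of the list with an adjusted p under 0.05 (0.0494 in limma), with a log2 fold change of 0.61 (SE 0.093), below the fold limit. In each fit that left out a library other than WT replicate 3 its adjusted p was above 0.05.

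Genes of the T-tubule and of the contact between T-tubule and store were higher in 3 of 6 cases at an unadjusted p under 0.05 and lower in none. Cav3, the muscle caveolin, had 30.2, 28.3 and 40.2 FPKM in WT and 48.6, 62.6 and 58.0 FPKM in Mc4r KO (log2 fold change 0.78, adjusted p = 0.0744 in limma). Tcap, which encodes telethonin and was the most abundant gene of the list, had 911, 1215 and 1576 FPKM in WT and 1656, 1780 and 2223 FPKM in Mc4r KO. Dysf, the membrane repair gene dysferlin, had 9.24 to 11.0 and 12.2 to 14.9 FPKM. The groups did not overlap for any of the 3, and the transcripts of all 3 had a GC content above 55%. Of all genes tested, 24.5% of those with 55% to 60% GC and 24.1% of those above 60% were likewise higher in every Mc4r KO library, so nothing particular to this role is read from the count.

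Among 15 genes of release and its regulation, 4 were higher and 1 was lower at an unadjusted p under 0.05. Of all genes, 20.9% passed that threshold, so nothing particular to this role is read from the count. Tmem38a, the counter-ion channel TRIC-A of the store, had 167, 172 and 175 FPKM in WT and 224, 249 and 222 FPKM in Mc4r KO (log2 fold change 0.43, adjusted p = 0.0754 in limma). Its paralog Tmem38b had 6.62 to 8.62 and 10.2 to 12.6 FPKM. Speg, a kinase of the junction, had 10.6 to 17.9 and 20.2 to 24.7 FPKM, and Calm3, a calmodulin gene, 56.3 to 65.6 and 73.6 to 81.8 FPKM. Akap6, which anchors protein kinase A, had 11.9 to 13.9 and 10.1 to 11.0 FPKM. The transcripts of Speg, Calm3 and Tmem38a had a GC content of 62.6%, 58.3% and 53.7%, against 41.6% for Tmem38b and 43.8% for Akap6. S100a1, a calcium sensor that binds the release channel, was the second most abundant gene of the list, at 443 to 617 and 476 to 569 FPKM, and its groups overlapped.

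Among 15 genes that regulate uptake, 1 was higher and 2 were lower at an unadjusted p under 0.05. The share of all genes at that threshold was 20.9%, so nothing particular to this role is read from the count. Akap5, an anchoring protein of protein kinase A, had 1.02, 1.06 and 0.800 FPKM in WT and 0.264, 0.434 and 0.393 FPKM in Mc4r KO (log2 fold change -1.20, adjusted p = 0.0721 in limma). Akap7, whose product brings protein kinase A to phospholamban, had 6.79 to 7.83 and 5.23 to 5.63 FPKM (log2 fold change -0.42, adjusted p = 0.0904 in limma). Ppp1cc, a catalytic subunit of protein phosphatase 1, had 18.0 to 23.8 and 24.3 to 28.5 FPKM. Prkaca, the catalytic subunit of protein kinase A and the fifth most abundant gene of the list, had 90.6 to 114 and 113 to 119 FPKM, with overlap.

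The remaining genes below an unadjusted p of 0.05 belonged to 4 roles. For mitochondrial uptake, Smdt1, a subunit of the calcium uniporter, was higher at 37.0 to 49.2 and 58.2 to 67.5 FPKM, and Micu2, a gatekeeper of the same channel, was lower at 27.6 to 31.0 and 23.1 to 24.2 FPKM. Saraf, a regulator of store-operated entry, was higher at 71.7 to 91.6 and 106 to 123 FPKM. Canx, a chaperone of the store, was lower at 53.4 to 62.3 and 45.1 to 49.9 FPKM, and Ppp3ca, a catalytic subunit of calcineurin, was lower at 7.39 to 8.73 and 5.75 to 6.20 FPKM. In all 5 the groups did not overlap and the adjusted p in limma was above 0.05. Of all genes tested, 14.1% were higher and 12.4% lower without overlap.

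**Figure D5:**
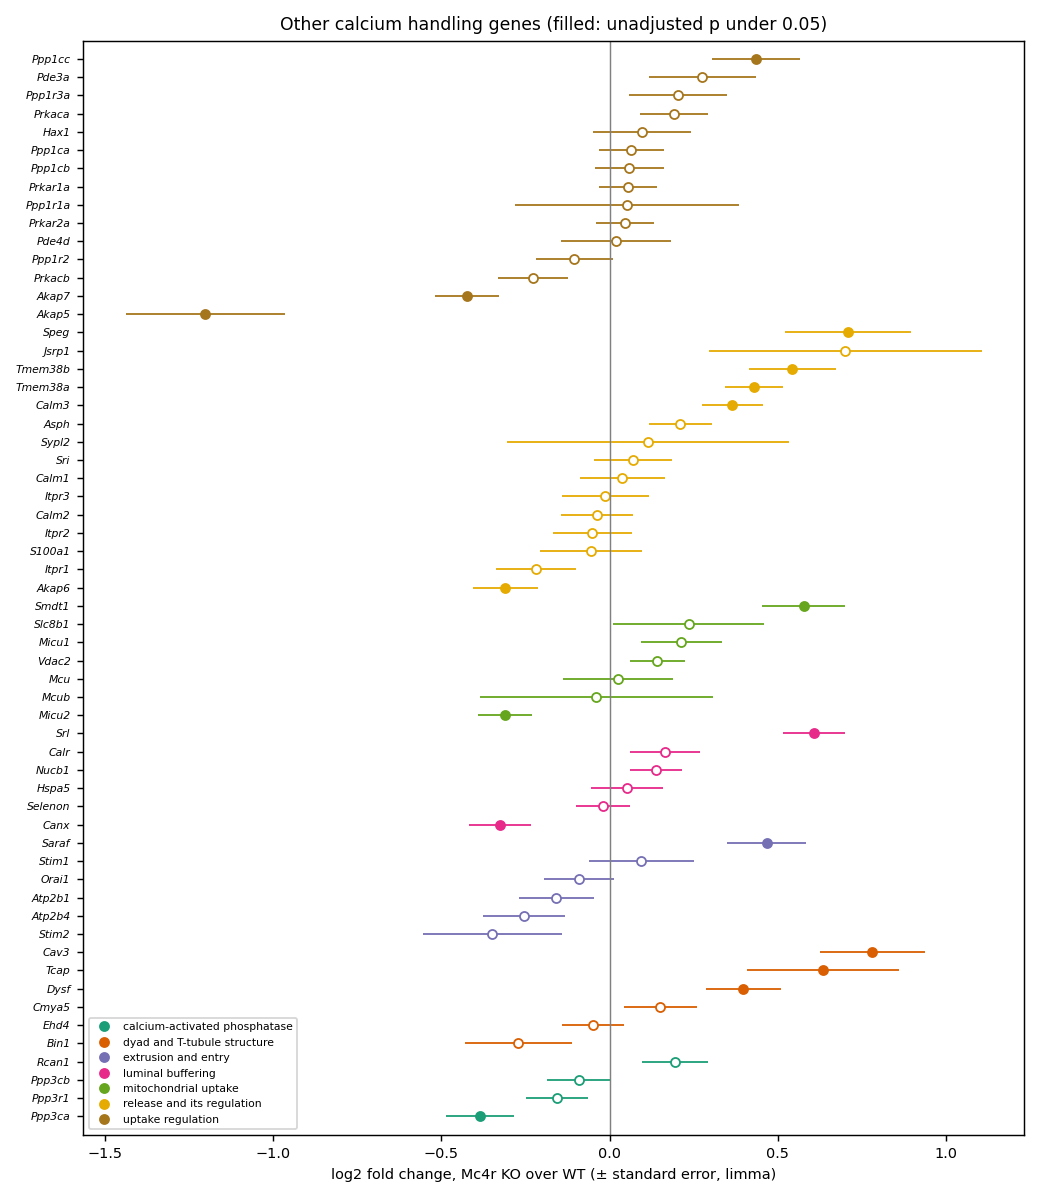
Log2 fold change (± SE) of the 59 tested genes of the wider calcium handling list, grouped by role, with filled points for an unadjusted p under 0.05. Akap5 lies farthest to the left at -1.20 and Cav3 farthest to the right at 0.78, and 36 of the 59 genes lie above 0 (18 under scaling outside the mitochondrial chromosome).

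The genes whose pattern over the 6 libraries was most like that of Ryr2, among 3086 protein-coding genes with a mean of at least 10 FPKM, were Cd151, Gpsm1 and Smdt1, with Pearson correlations of 0.996, 0.995 and 0.993. For Atp2a2 they were Tom1l2, Elof1 and Tmem141, with 0.996, 0.994 and 0.994. The 6 points share their libraries with the difference between the genotypes, so these values are a description of likeness only.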

How the data were processed

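RNA was measured in 6 heart libraries, 3 Mc4r KO and 3 WT, grouped by the genotype labels. Per the labels, libraries were made with a NEBNext Ultra kit and aligned to mm10 with HISAT2 (v2.0.5 in the submitters' processing notes); the authors counted reads per gene with featureCounts and computed FPKM, the unit of the deposited values used here. Their own fold changes and p-values were not used. Use of strand and the annotation release were not given in the sources used here.

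FPKM multiplied by gene length gave whole reads for 100% of the values checked (tolerance 0.05), so the reads on genes could be recovered. Median-of-ratios factors were 1 in each library, so the deposited FPKM had already been scaled in this way. Genes with a mean of at least 0.1 FPKM were tested on log2(FPKM + 0.1) with limma (3.58.1, trend, R 4.3.3), and p-values were adjusted by Benjamini-Hochberg over all genes. Fold changes are on this scale and are understated for low genes. The calling criterion of the study (adjusted p under 0.05, absolute log2 fold change above 0.75) was kept. Ratios were compared by exact permutation tests (scipy 1.17.1). The procedure was tested on simulated data. The study's methods give 3 animals for each group but do not tie libraries to animals, so p-values measure the spread between these libraries.

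The 10 members and the gene lists were chosen with earlier results of these data known. All members were described, all paralogs by level, and, of the wider list, genes with an unadjusted p under 0.05 and the 5 most abundant; for Ryr2 and Atp2a2 the 3 most similar genes were named. GC content and overlapping exons came from GENCODE release 21 (99.9% of gene identifiers matched), and promoters from RefSeq. Alternatives covered pseudocount, filter, scaling, limma options, covariates, trends with gene length, voom and leaving out each library. The alternatives on GC content were chosen after seeing the data.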

Additional observations from a re-analysis of the deposited data

How the results depend on the processing

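No member, paralog or gene of the wider list met the criterion in the analysis reported. With array weights 1 member, 1 paralog and 3 genes of the wider list did, with voom 1, 1 and 2, and with protein-coding genes alone 0, 1 and 2. Without the fold limit 1 gene of the wider list passed. Leaving out 1 library at a time gave 0 to 1 members (Jph2), 0 to 1 paralogs (Casq1) and 0 to 4 genes of the wider list, the highest counts coming without WT replicate 3. That library also set the count over all genes, which was 726 without it, 7 to 14 without any other and 83 with all; it was 435 with array weights, 314 by voom, 209 for protein-coding genes alone, 147 with a mean of at least 1 FPKM, 49 with quantile normalization, 44 with a pseudocount of 1, 41 with scaling outside the mitochondrial chromosome, 22 without a filter, 21 without the trend, 2 with mitochondrial share as a covariate and 0 with library GC. The cause of these changes was not tested.

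Scaling outside the mitochondrial chromosome shifted all genes to a median log2 fold change of -0.19. Quantile normalization gave 30 genes of the wider list higher and 29 lower. Direction turned for Pln and Camk2d with mitochondrial share as a covariate (0.13 and 0.11) and with library GC as a covariate (0.14 and 0.10). Fkbp1b ranged from -0.89 to 0.16 over the fits that left out a library. The log2 difference of Casq2 to Ryr2 ranged from -0.15 to 0.095 and that of Hrc to Atp2a2 from -0.024 to 0.040 in such fits, and the latter was -0.11 after removal of the GC trend. Ryr2, Casq2, Hrc, Jph2, Atp2a2, Slc8a1 and Trdn kept their direction in all 23 alternatives. Several of these left the fold change itself as it was and could not turn it. They were the FPKM as deposited, the changed filters, limma without trend or with robust fitting, and the replicate block.

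With the replicate number as a replicate block, 0 members met the criterion, the adjusted p of Ryr2 was 0.148, and 11 of all genes were called. Deviations of same-numbered libraries had correlations of -0.14, 0.01 and -0.08, which gave no sign that the numbers pair the samples. With 3 libraries in a group, these values cannot exclude pairing. Depth limits Fkbp1b, with 1 to 10 reads in a library.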
